A study of Rattus norvegicus with 24 samples.

Results

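Synaptic vesicle release genes are the genes whose products dock, prime and fuse transmitter-filled vesicles at nerve terminals. Members were taken by name: every gene on the array named Syt, Stx, Stxbp, Vamp, Snap, Cplx, Rims, Sv2 or Rab3 with a further letter or digit, and Syn1, Syn2, Syn3, Syp and Unc13a. This gave 82 genes with 106 probes among 35529 gene or transcript names with 41012 probes. Of the 82 genes, 76 were measured, meaning that a probe stood well above background, in Cy3 as in Cy5, on 12 or more of 24 arrays. Cplx4, Rims4, Stx11, Syt15, Sytl1 and Sytl4 did not reach this and have no values below. The name rule also caught 11 measured genes outside the families it was meant for, the 4 Snapc genes of small nuclear RNA transcription and 7 genes between Rab31 and Rab39. The other 65 measured genes were taken by name too, and not all of them act in vesicle release. The 11 are counted as members and described apart.

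A vesicle is held ready by SNARE proteins, with Vamp on the vesicle and syntaxin and Snap25 on the plasma membrane, which zip together to drive fusion. Unc13a (Munc13) prepares this complex, complexins hold it, and synaptotagmins sense the calcium that triggers release, while Rims and Rab3 proteins tether vesicles at the active zone. Most of these proteins come in paralogues, and in the brain the choice of paralogue differs between fast, slow, hindbrain and forebrain synapses.

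Brain RNA came from male Wistar rats of 10 weeks, 9 in all, of which 3 received saline and 6 received MK-801, a blocker of the open NMDA receptor channel, by intraperitoneal injection at 0.16 mg per kg (high dose) or 0.08 mg per kg (low dose). Brains were taken 40 min later and divided into hippocampus, hypothalamus, midbrain, amygdala, cerebral cortex and ventral striatum. The 24 two-colour arrays formed 12 dye swaps, 1 for each region and dose, each setting MK-801 RNA against saline RNA of the same region. The labels tie no array to an animal and do not say whether rats were pooled, so a dye swap is 1 value, and both doses share the same saline rats.

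Per array, 55.2% to 78.5% of probes exceeded background clearly in each colour, and no member spot was saturated. Each region lay on its own slide and 2 regions shared each of 3 scan days, so region and slide cannot be told apart. The spread of saline readings over the 4 arrays of a region was widest in the hippocampus, with a median SD of 0.31 on the log2 scale over all genes against 0.17 to 0.24 in the other regions. Of the markers that define the dissections, all 8 striatal genes were highest in the ventral striatum and all 6 measured midbrain genes in the midbrain. Of 8 measured hypothalamic genes, 3 were highest in the hypothalamus, and Avp, which encodes vasopressin, had its top level in the amygdala.

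The probes on which the results turn are shown by the first 30 of their 60 bases, 5′ to 3′ and in lower case, so that a reader can place them. The single Syt12 probe carries the main drug result and Syt5 the weakest call, both Rab38 and both bright Sv2b probes are shown because they disagree, and the Syt1, Syt2, Cplx1 and Cplx2 probes carry the regional patterns.
Syt12: gatagctcctgtaatgacagggctaagatt
Syt5: cagtctctgagctcttcccacacagcttga
Rab38, bright probe: tgtgccgtgccccggctgtgcttcccaggg
Rab38, dim probe: gcttttaaaatattagtctgttgcaatatg
Sv2b, brightest probe: aggcgtttattcagagtagtttagaagatt
Sv2b, next probe: ctatgtttgtatatagcagttttgaggttt
Syt1, brightest probe: aaggaaaagggaggaaagaacgccattaac
Syt2: catcgcccagtggcactctctgaagcctga
Cplx1: ggaaggcagaggactccaaccacacttgaa
Cplx2: tcagtcacgggctagggagcactaaccaaa
On rat assembly rn3, as the files give it, the Syt12 probe lies at chr1:207175275-207175334 on the minus strand and the Syt5 probe at chr1:68091093-68091152 on the plus strand. The 2 Rab38 probes lie at chr1:144862304-144862363 and chr1:144942472-144942531, both on the plus strand. The 2 Sv2b probes lie at chr1:130761141-130761200 and chr1:130763481-130763540 on the minus strand. The Syt1 probe lies at chr7:47410236-47410295 (minus), Syt2 at chr13:47711810-47711869 (plus), Cplx1 at chr14:1732341-1732400 (plus) and Cplx2 at chr17:16315831-16315890 (minus). The files name the gene of each probe, and no exon or UTR was assigned here.

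In the saline rats, many release genes had a preferred region, and within several paralogue sets the highest region differed. The saline level is the normalized log2 intensity of the saline colour, the mean of 4 arrays per region. It compares regions for 1 probe, and never 1 gene with another. The highest region was at least 2-fold above the lowest for 39 of 76 members, where 32.8% of all 23450 genes passed the same limit. The 39 were 38 of the 65 members outside the Snapc and Rab31 to Rab39 groups and 1 of the 11 within them. The median distance between highest and lowest region was 1.02 log2 units over members and 0.76 over all genes. In bulk tissue, fewer cells of a type and less RNA per cell cannot be told apart. The labels name no replicate of a region, so these levels are descriptions with no test. How often 2 unrelated genes have different highest regions was not tested. Not all paralogues ran apart. Over the 6 regions Syn1 correlated with Syn2 at r = 0.63 and with Syn3 at 0.63. The Syn1 and Syn3 value did not hold in other RNA, at -0.18 in high dose and 0.87 in low dose RNA. Rab3b correlated with Rab3d at 0.62, Sv2b with Sv2c at 0.57 and Snap23 with Snap25 at 0.17. The other paralogue pairs compared correlated below 0.

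**Figure D1:**
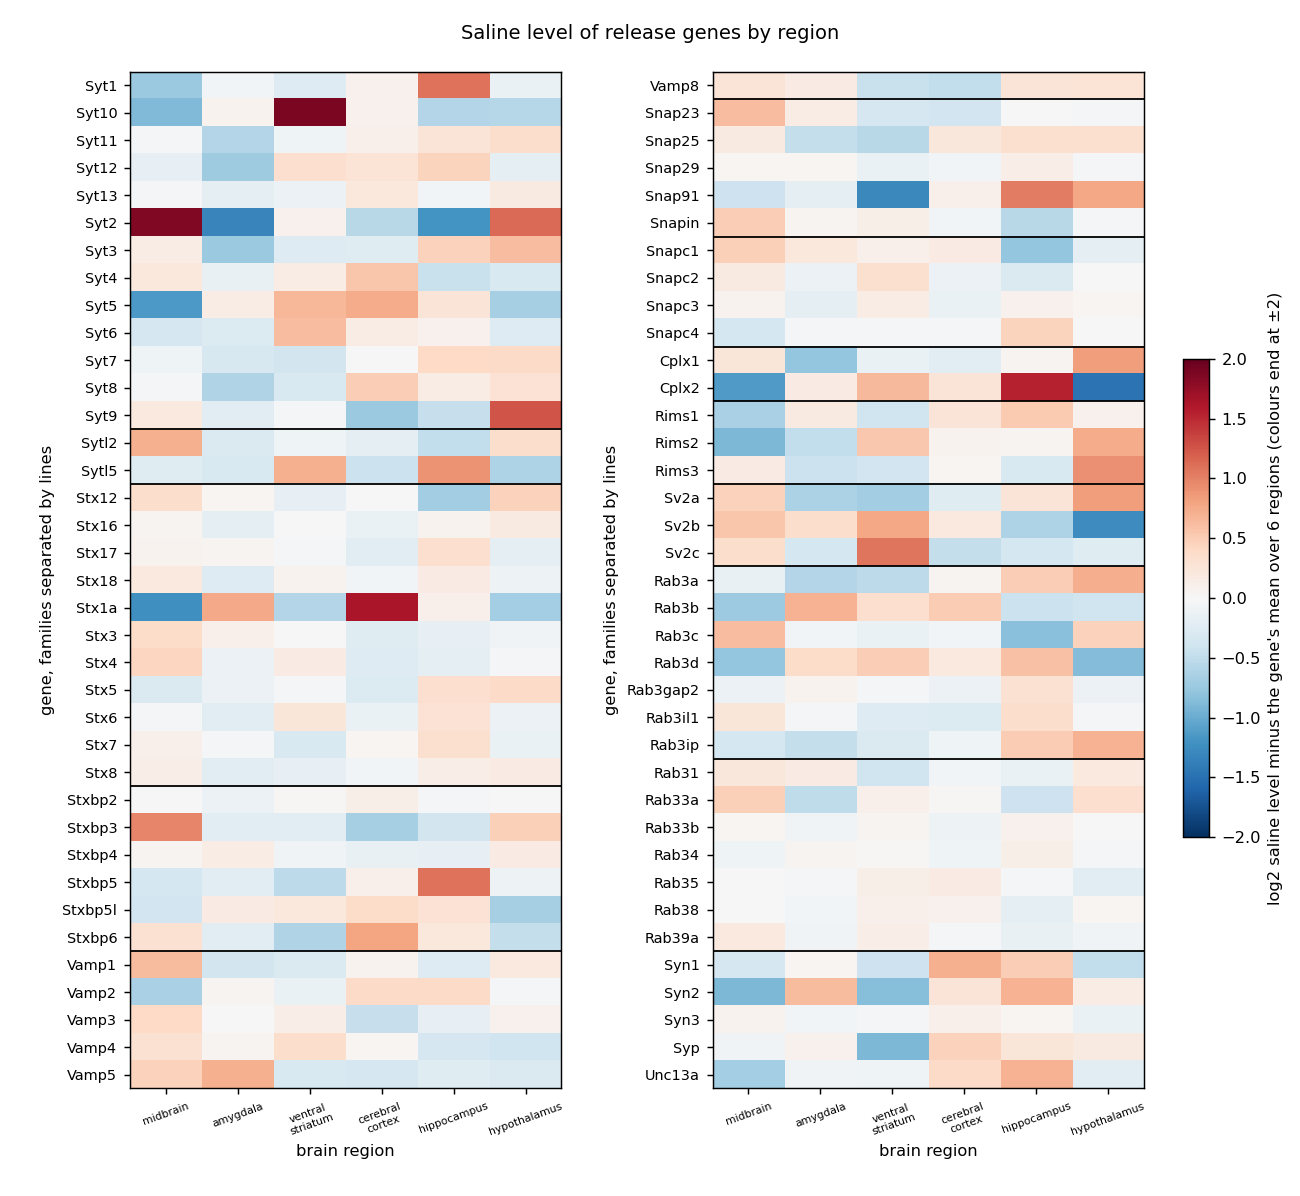
Saline level of 74 of the 76 measured members (rows, families separated by lines) in 6 regions (columns), as log2 level minus the gene's own mean over the regions; colours end at ±2. Syt2 is deepest red in the midbrain, Syt10 in the ventral striatum, Stx1a in the cerebral cortex and Cplx2 in the hippocampus, while the Rab31 to Rab39 rows stay pale.

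The region of the highest level varied from gene to gene. The midbrain was highest for 15 members (20.5% of all genes), the amygdala for 2 (13.3%), the ventral striatum for 9 (13.7%), the cerebral cortex for 14 (13.2%), the hippocampus for 20 (20.1%) and the hypothalamus for 16 (19.2%). The amygdala was thus seldom a member's highest region. The highest region was the same in saline, low dose and high dose RNA for 28 of the 39 members past 2-fold and for 43 of all 76. These 3 kinds of RNA share arrays, so this is not independent support.

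Among the calcium sensors, Syt1 and Syt2 lay in opposite regions. Syt2, the fast sensor of hindbrain and interneuron terminals, had saline levels of 11.10 in midbrain, 10.38 in hypothalamus, 9.34 in ventral striatum, 8.70 in cerebral cortex, 8.05 in hippocampus and 7.93 in amygdala. Its midbrain level was 9-fold above the amygdala, the largest regional range of any member, with SDs over the 4 arrays of 0.10 to 0.18. Syt1, the main forebrain sensor, was highest in the hippocampus at 12.03 ± 0.14 (SD, n = 4 arrays) and lowest in the midbrain at 10.19 ± 0.08, a 3.58-fold range. Of the other 2 Syt1 probes, 1 was also highest in the hippocampus and 1 in the cerebral cortex, and both were lowest in the midbrain. By position the hippocampus probe overlaps the brightest probe, so it is not a separate reading. The cortex probe ranged over 1.06 log2 units against 1.84 for the brightest, so the size of the Syt1 pattern depends on the probe. From midbrain to hippocampus the ratio of Syt1 to Syt2 shifted 29.6-fold with the brightest Syt1 probe. Across the 6 regions their levels correlated at r = -0.73, points that share slides and depth.

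Syt10, a calcium sensor tied to growth factor secretion, stood out in the ventral striatum at 9.32 ± 0.33 (SD, n = 4 arrays), 1.79 log2 units above the cerebral cortex at 7.53. It was not well above background in the midbrain, and the ventral striatum was at least 6.73-fold above it. Syt9, a sensor of vesicles and hormone granules, was highest in the hypothalamus at 8.40 ± 0.16, 1.07 above the midbrain, and was not well above background in the hippocampus, so the order of its lowest regions is not resolved. The gaps of Syt10 and Syt9 to the next region exceed the SD over arrays several times. Syt6 also had its highest level in the ventral striatum, by 0.48 over the cerebral cortex. Syt5 was lowest in the midbrain at 12.68 ± 0.13 and highest in the cerebral cortex at 14.57 ± 0.16 and ventral striatum at 14.48 ± 0.22, which did not differ beyond their spread. In all, 8 of 13 measured synaptotagmins passed 2-fold.

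The complexins split in the same manner. Cplx2 had saline levels of 12.47 in hippocampus, 11.57 in ventral striatum, 11.18 in cerebral cortex, 11.10 in amygdala, 9.79 in midbrain and 9.45 in hypothalamus. The hippocampus was 8.12-fold above the hypothalamus, with SDs over arrays of 0.16 to 0.40. Cplx1 was instead highest in the hypothalamus, 0.58 log2 units above the midbrain at 8.42 ± 0.12 (SD, n = 4 arrays), and lowest in the amygdala at 7.39 ± 0.13. The telencephalic regions thus sat high for Cplx2, and midbrain and hypothalamus for Cplx1. The Cplx1 to Cplx2 ratio shifted 13.8-fold between hypothalamus and hippocampus, and the 2 levels correlated at r = -0.56 over 6 regions.

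**Figure D2:**
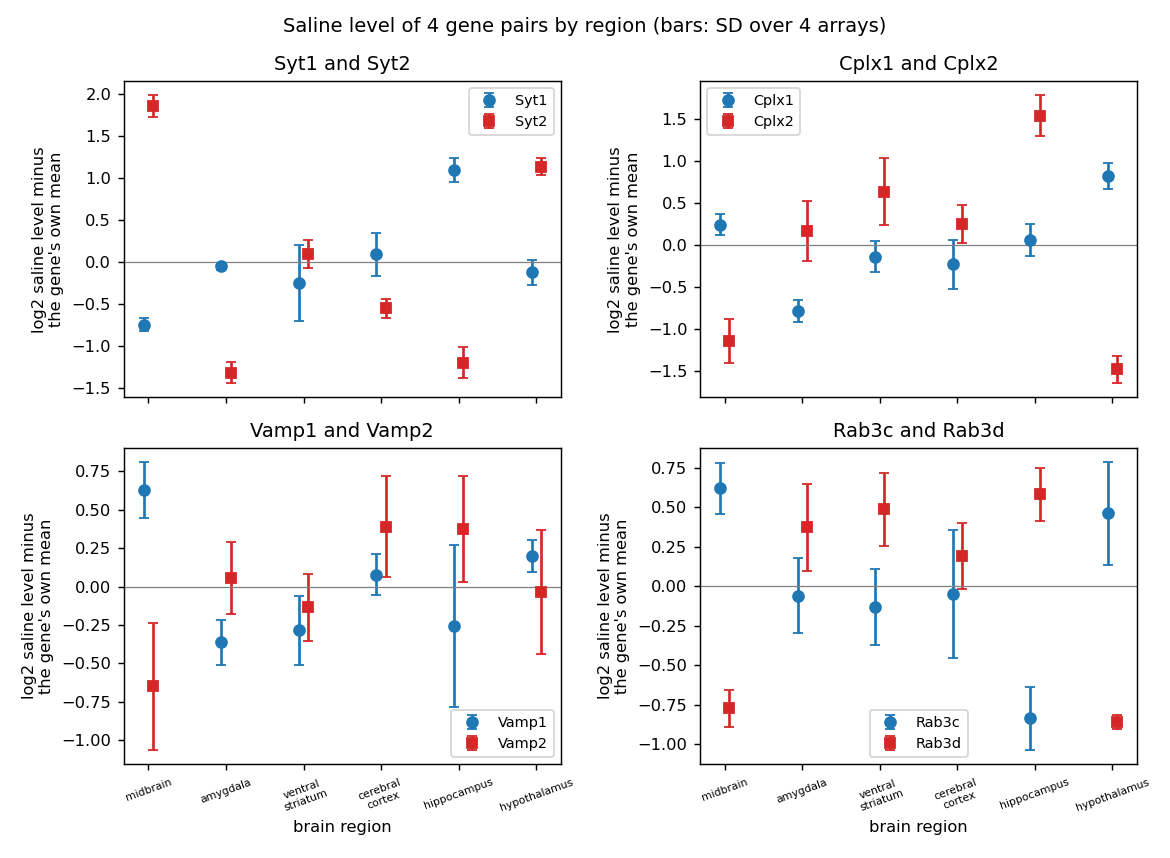
Saline level of 4 gene pairs by region, as log2 level minus the gene's own mean over 6 regions (points) with the SD over 4 arrays (bars). Syt1 and Syt2, Cplx1 and Cplx2, and Rab3c and Rab3d run in opposite directions across the regions, with bars shorter than each gene's distance from highest to lowest region. Vamp1 and Vamp2 cross mainly at the midbrain.

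Among the SNARE proteins, 1 gene was strongly regional and most were even. Stx1a, a plasma membrane syntaxin of nerve terminals, had saline levels of 10.39 in cerebral cortex, 9.52 in amygdala, 8.87 in hippocampus, 8.17 in ventral striatum, 8.08 in hypothalamus and 7.52 in midbrain, a 7.3-fold range with SDs of 0.12 to 0.27. With the probes used, only 2 of 12 measured syntaxins, Stx1a and Stx12, passed 2-fold. Stx12 was lowest in the hippocampus, with an SD of 0.88 there. Its other probes ranged over 0.99 and 0.59 log2 units, below 2-fold, and a second Stx6 probe over 1.23, above it. The count thus depends on the probe. Stx12 is a syntaxin of endosomes.

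Snap25, the main plasma membrane SNARE of neurons, lay between 14.70 in ventral striatum and 15.58 in hypothalamus, a 1.84-fold range. Its broadly expressed relative Snap23 was highest in the midbrain at 9.27 ± 0.09 (SD, n = 4 arrays), a 2.01-fold range. Vamp1 was highest in the midbrain at 9.47 ± 0.18 against 8.48 ± 0.14 in amygdala, whereas Vamp2, the main vesicle SNARE of the forebrain, was lowest there at 12.85 ± 0.41 against 13.89 ± 0.33 in cerebral cortex. Both bright probes of each gene gave these same highest and lowest regions. The second Vamp1 probe spread further, 2.24 log2 units against 0.99 for the first, so the size of the Vamp1 pattern depends on the probe. Snap91, a clathrin adaptor that the Snap prefix includes, was lowest in the ventral striatum at 10.09 and highest in the hippocampus at 12.40 ± 0.05, but its SDs reached 0.71.

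The genes that prepare or restrain fusion were highest in midbrain, hippocampus, cerebral cortex or hypothalamus. Stxbp3, a syntaxin-binding protein of non-neuronal secretion, was highest in the midbrain at 13.88 ± 0.19 (SD, n = 4 arrays) and lowest in the cerebral cortex at 12.25 ± 0.14. Stxbp5 (tomosyn), an inhibitor of SNARE assembly, stood 0.99 above the next region in the hippocampus at 11.10 ± 0.19, and Stxbp6 (amisyn) was highest in the cerebral cortex at 14.22 ± 0.19, 0.49 above the midbrain. The priming factor Unc13a was lowest in the midbrain at 7.37 and highest in the hippocampus at 8.74, a 2.59-fold range. Of the active zone scaffolds, Rims1 was highest in the hippocampus at 8.84, and Rims2 and Rims3 were highest in the hypothalamus, at 10.19 and 7.92. Rims1 lay only 0.26 above the cerebral cortex, with an SD of 0.33 in the hippocampus. Rims2 lay 0.20 above the ventral striatum, where the SD was 0.36. The order at the top is not resolved for Rims1 and Rims2, and in low dose RNA Rims1 was highest in the cerebral cortex. All 3 measured Rims genes passed 2-fold, and Rims3 was 0.74 above the next region. Rims3 was not well above background in the hippocampus.

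Among vesicle membrane proteins, the Sv2 genes had different regions. Sv2a was highest in the hypothalamus at 14.20 ± 0.19 (SD, n = 4 arrays) and lowest in the ventral striatum at 12.67 ± 0.37. Sv2c, the Sv2 form of basal ganglia neurons, was highest in the ventral striatum at 8.09 ± 0.22, 0.72 above the midbrain at 7.38 ± 0.17. Sv2b depended on the probe. Its brightest probe read 15.88 in ventral striatum, 15.66 in midbrain, 15.30 in cerebral cortex, 14.50 in hippocampus and 13.85 in hypothalamus. The next probe, also well above background on all 24 arrays and close by on the same strand, read highest in cerebral cortex at 10.13 and lowest in midbrain at 7.69. No regional order of Sv2b RNA can be given from probes that disagree in this way.

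Syp, the abundant vesicle membrane protein synaptophysin, was lowest in the ventral striatum at 13.02 ± 0.21 (SD, n = 4 arrays), 0.84 below the next lowest region, and highest in the cerebral cortex at 14.39 ± 0.35. Syn1 and Syn2, the synapsins that tether the reserve pool, were highest in cerebral cortex at 9.88 and in hippocampus at 11.96, with ranges of 2.31-fold and 3.01-fold. The SDs of Syn2 reached 0.75, so its order among amygdala, cortex and hippocampus is not resolved. Syn3 ranged only 1.17-fold, but its probe was well above background on 12 arrays, the fewest allowed. An even level and a signal near background cannot be told apart here.

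The Rab3 GTPases also differed between regions as paralogues, but their highest regions lay close to the next. Rab3a, the main form on synaptic vesicles, was highest in the hypothalamus at 12.16 ± 0.22 (SD, n = 4 arrays) and lowest in the amygdala at 10.84 ± 0.07. Rab3b was highest in amygdala at 11.35 and lowest in midbrain at 9.94. Rab3c was highest in midbrain at 10.67 and lowest in hippocampus at 9.22, 0.70 below the next region, whereas Rab3d was highest in hippocampus at 10.15 and low in midbrain at 8.80 and hypothalamus at 8.71. The highest region lay above the next by 0.24 for Rab3a, 0.19 for Rab3b, 0.16 for Rab3c and 0.09 for Rab3d. Each gap was smaller than the larger SD of the 2 regions, so the order at the top is not resolved. In RNA of both doses Rab3c was highest in the hypothalamus. Rab3b was highest in the cerebral cortex in low dose RNA, and Rab3d in the ventral striatum in high dose RNA. Over the 6 regions Rab3c and Rab3d correlated at r = -0.88, and both Rab3d probes were highest in the hippocampus. Among the 11 members of the Snapc and Rab31 to Rab39 groups, only Snapc1 passed 2-fold, with its lowest level, 8.57 ± 0.55, in the hippocampus.

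After MK-801 nearly all release genes stayed close to the saline level, and 1 synaptotagmin, Syt12, fell at both doses. A response is the log2 of MK-801 over saline, mean ± SD over regions, tested against 0 with limma, with Benjamini-Hochberg adjustment across the whole table and a call at an adjusted p under 0.05. The n are regions from the same animals, so p measures the spread between regions and not between rats. A difference between the sets of rats would give the same direction in every region. Over both doses together 2 of 75 members were called, Syt12 lower and Rab38 higher, where 2.62% of all genes were called. At the high dose 1 of 76 was called (2.12% of all genes), and at the low dose 3 of 76 (2.61%). For the difference between doses 2 of 75 were called (1.52%). The shares of members called lie near those of all genes. The mean over both doses lay within 0.1 log2 units of 0 for 72 of 75 members, and its median size was 0.02, as over all genes.

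Syt12, a synaptotagmin of synaptic vesicles that lacks the usual calcium-binding residues, had low dose values of -0.80 in amygdala, -0.43 in hypothalamus, -0.41 in ventral striatum, -0.40 in cerebral cortex, -0.39 in midbrain and -0.26 in hippocampus. At the high dose the values were -0.27 in amygdala, -0.26 in hypothalamus, -0.23 in cerebral cortex, -0.12 in midbrain, -0.10 in ventral striatum and -0.09 in hippocampus. All 12 dye swaps lay below 0, the amygdala was lowest at both doses and the hippocampus was nearest to 0. In the amygdala at the low dose Syt12 stood at 57.6% of saline, in the other regions at 74.4% to 83.3%.

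Syt12 fell by 0.45 ± 0.18 at the low dose (SD, n = 6 regions, adjusted p = 0.000512 by limma) and by 0.18 ± 0.09 at the high dose (n = 6, adjusted p = 0.0136 by limma). The high minus low difference was 0.27 ± 0.14, above 0 in 6 of 6 regions (adjusted p = 0.00717 by limma), so the fall was larger at the lower dose. Of the 24 arrays, 23 read below 0 and the high dose midbrain array with MK-801 in Cy3 read 0.02. The size depended on the dye. The low dose mean was -0.54 with MK-801 in Cy5 alone and -0.36 in Cy3 alone. In the amygdala the low dose arrays read -1.05 in Cy5 and -0.54 in Cy3. The low dose call held in all 21 alternatives computed, with adjusted p from 4.67e-06 to 0.019. The high dose call held in 12 of 21 alternatives. It was lost without amygdala (adjusted p = 0.0549 by limma), cerebral cortex (0.0618), hypothalamus (0.0502) or the arrays with MK-801 in Cy5 (0.0538), with the scanner's own ratios (0.074) or the deposited value table (0.0764) and within each scan day, over a range from 0.0022 to 0.432. The dose difference held in 17 of 23 alternatives. It was lost with the scanner's own ratios (adjusted p = 0.123 by limma), the deposited value table (0.127) or a background offset of 0 (0.0711) and within each scan day (0.1, 0.179 and 0.416), over a range from 0.00154 to 0.416. Only 1 probe on the array measured Syt12.

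**Figure D3:**
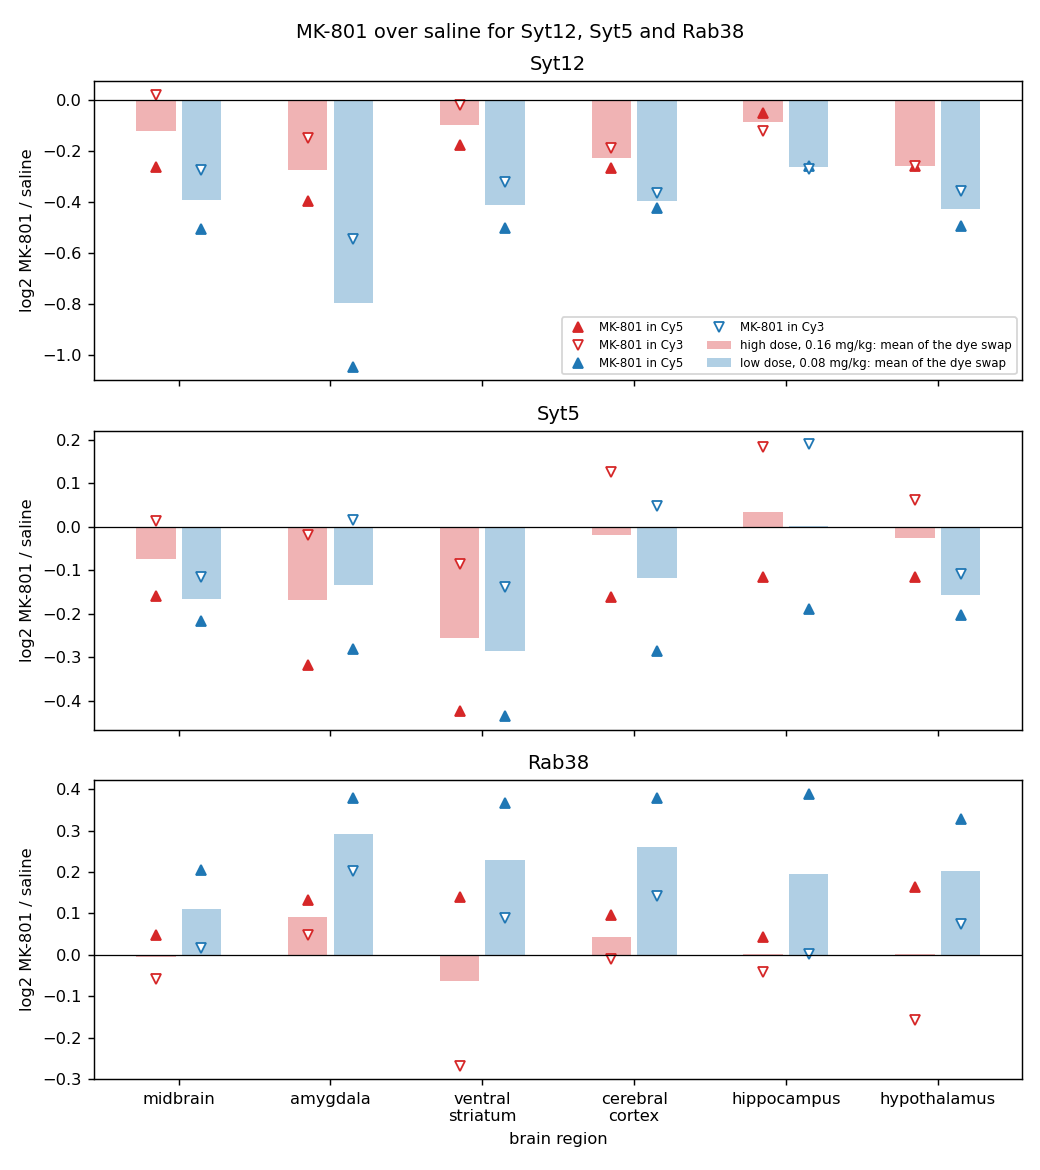
Log2 ratio of MK-801 to saline for Syt12, Syt5 and Rab38 in 6 regions, at the high (red) and low (blue) dose. Bars are means of a dye swap, filled triangles arrays with MK-801 in Cy5 and open triangles arrays with MK-801 in Cy3. Syt12 bars all lie below 0 with the longest at -0.80 in the amygdala. Open and filled triangles lie well apart for Syt5 and Rab38, and for Syt12 in the amygdala at the low dose.

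In saline, Syt12 was highest in hippocampus at 10.92 ± 0.76 (SD, n = 4 arrays) and lowest in amygdala at 9.76 ± 0.28, 0.52 below the next region. Levels in hippocampus, ventral striatum and cerebral cortex (10.81 and 10.75 in the last 2) did not differ beyond their spread. The region with the lowest saline level was thus also the one with the lowest ratio. The same saline readings enter both values, so they are not independent.

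Marker lists of other cells moved in the same comparisons. At the low dose the summed level of 12 microglia markers lay 0.04 to 0.11 above saline in 6 of 6 regions, with 4 of 12 called higher, and that of 14 oligodendrocyte markers 0.01 to 0.16 above in 6 of 6, with 2 of 14 called higher. At the high dose these sums ran from -0.07 to 0.09 and from -0.32 to 0.21. The 3 measured red blood cell genes, summed, had log2 ratios of -0.81 to -0.16 at the low dose and 0.14 to 0.52 at the high dose, without overlap. Of these genes 2 were called lower at the low dose and 3 higher at the high dose. For the high minus low difference 3 of 3 were called higher. For 11 measured endothelial markers the sum lay below saline in 6 of 6 regions at the low dose, at -0.08 to -0.01, with 1 called higher and 2 lower, and ran from -0.08 to 0.07 at the high dose, with 1 called higher and 1 lower. The 12 astrocyte markers summed to -0.11 to 0.08 at the low dose, with 2 called higher and 1 lower, and to -0.10 to 0.07 at the high dose, with 1 called higher and 1 lower. The 12 pan-neuronal markers had none called at either dose (unadjusted p under 0.05 for 0 of 12 at the high dose and 1 of 12 at the low dose), and their sum lay between -0.07 and 0.07 over all regions and doses. Markers of the dissections moved as well in some regions. Over the 6 regions, summed hypothalamus markers ran from -0.68 to 0.07 at the high and from -0.66 to 0.01 at the low dose. Midbrain markers ran from -0.30 to 0.03 and from -0.25 to 0.21, and striatal markers from -0.26 to 0.05 and from -0.29 to 0.15. Hippocampus and cortex markers ran from -0.22 to 0.05 and from -0.08 to 0.03. The part of blood, vessel or glial content, or of dissection, in the Syt12, Syt5, Rab38 and single region values was not tested.

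Rab38, a Rab GTPase of pigment and lung granules that the name rule catches without its being a Rab3 gene, had low dose values of 0.29 in amygdala, 0.26 in cerebral cortex, 0.23 in ventral striatum, 0.20 in hypothalamus, 0.20 in hippocampus and 0.11 in midbrain. Its high dose values ran from -0.06 in ventral striatum to 0.09 in amygdala. Low and high dose values did not overlap. Rab38 rose by 0.21 ± 0.06 at the low dose (SD, n = 6 regions, adjusted p = 0.00112 by limma) and its high dose mean was 0.01 ± 0.05 (adjusted p = 0.916). The difference between doses was -0.20 ± 0.06, below 0 in 6 of 6 regions (adjusted p = 0.00424 by limma). This call was lost without the high dose arrays in Cy3 (-0.11, adjusted p = 0.0685 by limma), without the low dose arrays in Cy5 (-0.08, 0.164) and within each scan day, over a range from 0.000444 to 0.665.

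The Rab38 value depends on dye and probe. With MK-801 in Cy5 the low dose arrays read 0.20 to 0.39 and with MK-801 in Cy3 they read 0.00 to 0.20. The low dose mean was 0.34 without the Cy3 arrays and 0.09 without the Cy5 arrays, where the call was lost (adjusted p = 0.0938, range over alternatives 2.52e-05 to 0.907). The second probe of the gene, well above background on 10 arrays and therefore not used, had a low dose mean of -0.08. The low dose call held in 17 of 21 alternatives and was also lost within each scan day. The call over both doses, 0.11 ± 0.05 (adjusted p = 0.0213), was lost without amygdala, cerebral cortex, hippocampus or hypothalamus, with adjusted p from 0.0515 to 0.092 (range over alternatives 6.86e-05 to 1). It was lost too within each scan day and without the high dose or the low dose arrays with MK-801 in Cy5, and held in 14 of 23 alternatives.

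Syt5, a synaptotagmin of dense core and synaptic vesicles, passed the limit only at the low dose. Its values were -0.29 in ventral striatum, -0.17 in midbrain, -0.16 in hypothalamus, -0.13 in amygdala, -0.12 in cerebral cortex and 0.00 in hippocampus. It fell by 0.14 ± 0.09 (SD, n = 6 regions, adjusted p = 0.044 by limma), with 5 of 6 regions below 0. The high dose mean was -0.08 ± 0.11 (adjusted p = 0.384), and the dose difference of 0.06 ± 0.06 was not called (adjusted p = 0.561). With the number of an array as a replicate block, that is its dose and dye orientation, the mean over both doses, -0.11 ± 0.10 with adjusted p = 0.103, was called (adjusted p = 0.00102, range over alternatives 0.00102 to 0.977), on single arrays counted separately. It was also called with the scan day as a random block (adjusted p = 0.0419 by limma). Over both doses Syt5 was called in 4 of 23 alternatives. These include the fits without the high dose or the low dose arrays with MK-801 in Cy3. There 4675 and 4752 of all genes were called, against 605 in the main fit. The low dose call rested on 1 dye orientation, since the mean was -0.27 on arrays with MK-801 in Cy5 and -0.02 with MK-801 in Cy3 (adjusted p = 0.787 by limma, range over alternatives 0.000741 to 1). This low dose call held in 9 of 21 alternatives. It was lost on leaving out any 1 region but the hippocampus and within each scan day. It was also lost with the scanner's own ratios (adjusted p = 0.113 by limma), the deposited value table (0.116) or a background offset of 0 (0.12).

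The core fusion genes named here gave no call at either dose. Among the SNAREs, Snap25 had a mean of -0.04 ± 0.10 at the high and -0.01 ± 0.08 at the low dose (SD, n = 6 regions) and Stx1a -0.01 ± 0.07 and 0.03 ± 0.08. Vamp2 had -0.04 ± 0.02 and -0.02 ± 0.08 over 5 regions each, since spots marked as outliers left out the amygdala at the high dose and the midbrain at the low dose. For the priming factor Unc13a the means were 0.01 ± 0.09 and -0.02 ± 0.06. Regional values of each of these genes lay on both sides of 0 at one dose or the other. On 1 dye orientation alone the low dose mean of Vamp2 read 0.47 with MK-801 in Cy3 and -0.48 in Cy5, and that of Stx1a 0.27 and -0.22, on either side of the mean over both.

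The calcium sensor Syt1 had means of 0.03 ± 0.13 at the high and -0.08 ± 0.18 at the low dose (SD, n = 6 regions), with single values from -0.29 in amygdala to 0.20 in hypothalamus. Cplx1 had -0.02 ± 0.10 and 0.00 ± 0.09, Rims1 -0.03 ± 0.14 and -0.05 ± 0.08, and Rab3a 0.06 ± 0.09 and 0.06 ± 0.07. Of the vesicle proteins, Syp had 0.00 ± 0.13 and 0.00 ± 0.07 (n = 6 and 5 regions), Syn1 0.00 ± 0.03 and 0.03 ± 0.07, and Sv2a -0.03 ± 0.08 and -0.02 ± 0.07. Syn2 had -0.02 ± 0.04 and -0.09 ± 0.13, and Sv2c -0.09 ± 0.10 and -0.02 ± 0.11. None of these passed the limma test, and a missed test does not show that the level was the same.

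**Figure D4:**
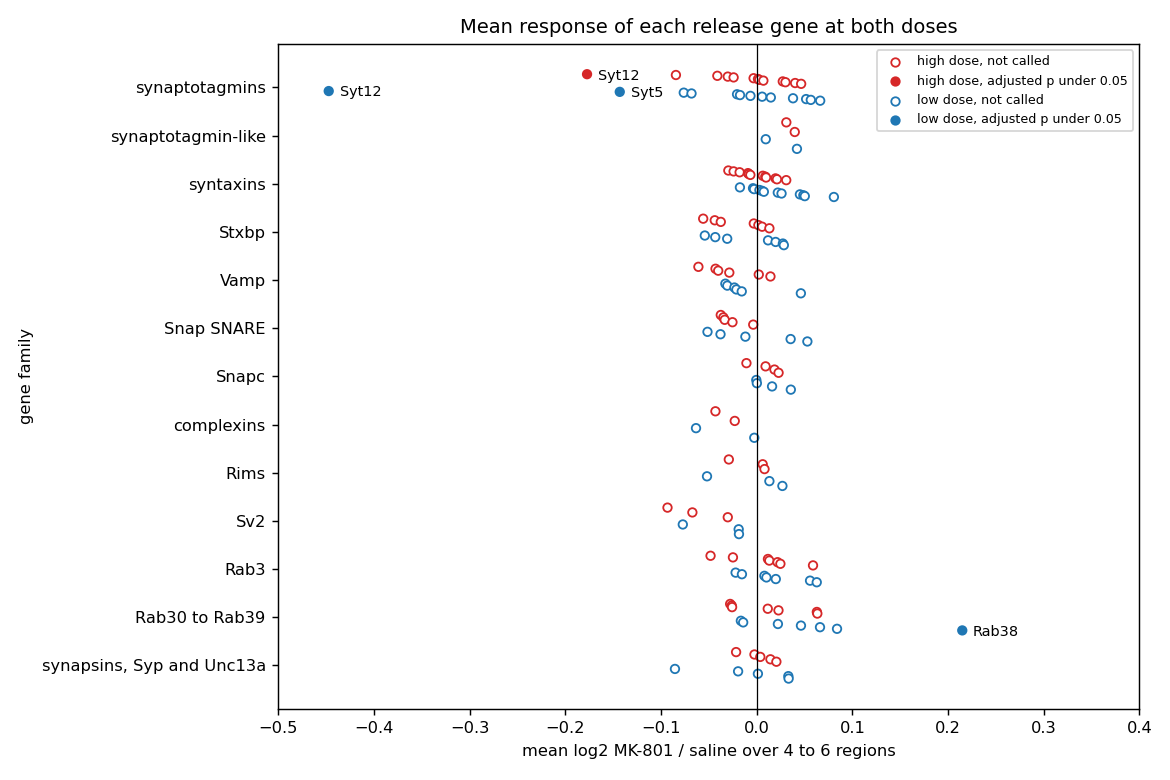
Mean log2 ratio of MK-801 to saline of each measured member by family, at the high (red) and low (blue) dose, over 4 to 6 regions. Filled points passed an adjusted p under 0.05 by limma. Syt12 at both doses and Rab38 and Syt5 at the low dose are filled, and the other points lie between -0.1 and 0.1.

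Single dye swaps have no replicate and are given as values. Past 1.2-fold in either direction lay 3 of 445 member values at the high dose, where 1.98% of all values did, and 14 of 449 at the low dose, where 2.02% did. Of these 14, 6 were Syt12 and 5 lay in the amygdala. The amygdala values at the low dose beside Syt12 were -0.32 for Syn2, -0.31 for Sv2b, -0.29 for Syt1 and 0.29 for Rab38. The other Syt1 probes read -0.25 and 0.02 there, so the Syt1 value did not hold over probes.

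The lowest high dose value was Sv2b in the hippocampus at -0.56, and the highest was also Sv2b, at 0.24 in ventral striatum. Both arrays of the hippocampal swap read below 0, at -0.38 and -0.74, but the next Sv2b probe read -0.06 there and -0.19 in ventral striatum. Cplx2 was low in the hypothalamus at both doses, -0.36 at the high dose and -0.28 at the low dose. The 4 arrays behind these read -0.46, -0.25, -0.36 and -0.21, all below 0, while the other regions ran from 0.03 to 0.05 at the high and from -0.18 to 0.15 at the low dose. The hypothalamus was also the region with the lowest saline level of Cplx2. The Cplx2 mean was not called at either dose (adjusted p = 0.832 over 5 regions and 0.622 over 6, by limma).

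The direction of the response was counted over the 6 regions. Of members with 6 values, 6 of 66 had 1 direction in all regions over both doses (9.09%, against 9.27% of all genes), 2 of 67 at the high dose (2.99% against 8.11%) and 5 of 70 at the low dose (7.14% against 9.13%). Besides Syt12 and Rab38, those with the largest means over both doses were Rab31 at 0.07 ± 0.05, Rab34 at 0.06 ± 0.04 and Rab3a at 0.06 ± 0.07 (SD, n = 6 regions), none of them called. With the replicate block Rab31 was called over both doses, and the count of members called became 4. At the low dose Syt3 (0.07 ± 0.03), Rab33b (0.05 ± 0.03) and Rab31 (0.08 ± 0.07) lay above 0 in 6 of 6 regions without passing the test. Their direction turned with the dye: with MK-801 in Cy3 alone Syt3 read 0.31, Rab33b 0.14 and Rab31 -0.11, and with MK-801 in Cy5 alone they read -0.17, -0.05 and 0.28. For the dose difference 3 of 66 had 1 direction (4.55% against 7.03%), the third being Syt7 at 0.06 ± 0.04.

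The other genes of the pathway were counted in 3 lists, beside 2.62% of all genes called over both doses, 2.12% at the high dose and 2.61% at the low dose. Of 23 genes of the active zone and priming, 1 was called over both doses, Unc13c, a Munc13 paralogue of cerebellar synapses, which rose by 0.16 ± 0.11 (SD, n = 6 regions, adjusted p = 0.0327 by limma). It was also called at the low dose, at 0.17 ± 0.12 (adjusted p = 0.0403), and not at the high dose, at 0.16 ± 0.12 (adjusted p = 0.0905). Of 18 measured genes of SNARE disassembly and vesicle recycling, 1 was called, Napa (alpha-SNAP), which rose by 0.11 ± 0.04 at the high dose (adjusted p = 0.0449). Of 20 vesicle membrane and transporter genes none of the 18 or 19 tested was called in any comparison by limma, and 1 or 2 had an unadjusted p under 0.05. The median means of these 3 lists lay between -0.02 and 0.01 in all 4 comparisons, where the median over all genes was 0.00.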

How the data were processed

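RNA of MK-801 and saline rats was hybridised to 24 two-colour Agilent arrays. The deposited scanner files hold the intensity of each colour, read by Agilent Feature Extraction 9.5.3.1 per the file headers, and the deposited value table holds log10 ratios of the processed colours, used as an alternative. One scanner file was stored with 3 significant digits. Intensities were background-corrected (normexp, offset 50) and loess-normalized within arrays in limma 3.58.1 (R 4.3.3). Control spots and outlier flags were left out, and arrays of a dye swap were averaged. The brightest kept probe stood for a gene, with values in at least 4 of 6 regions. Saline levels used quantile normalization of the average intensity. Responses were fitted with lmFit and eBayes against 0 and adjusted by Benjamini-Hochberg over all genes; the fit was tested on simulated data.

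Named genes are the members called, a fixed core of the release machinery, the members with the largest means in 1 direction, the largest saline gaps and single swaps, and paralogue sets. Members and lists were chosen with earlier results of these data known. Values of 2 members are not reported here by name. Gene names were updated through a RefSeq table, which held all 82 members. The number of an array (1 to 4) stands for its dose and dye orientation, and deviations of same-numbered arrays correlated at 0.524 to 0.741 over 60 pairs, so a fit with it as a replicate block was an alternative. The 2 arrays of a dye swap, both turned to MK-801 over saline, correlated at -0.484 to -0.105 over 12 swaps, with a median of -0.24. The number of arrays limits the precision.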

Additional observations from a re-analysis of the deposited data

Results flagged for a closer look

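Among 100 sets of regional values (25 genes in 4 comparisons), 8 held 1 region far from the others. Some of these genes were chosen by the same values and the 4 comparisons share data, so the count has no chance rate to stand against. For Syt12 at the low dose this was the amygdala at -0.80, against -0.43 in the nearest region. For Cplx2 at the high dose it was the hypothalamus at -0.36, against 0.03, and for Unc13a at the high dose the cerebral cortex at -0.155, against 0.01. Over both doses the cerebral cortex stood apart for Snap25 at 0.11 and for Rab3a at 0.19. The amygdala stood apart for Rab31, at 0.17 over both doses and 0.23 at the low dose, and the midbrain for Rab34 at 0.14. The doses differed by limma for Rab38, with high minus low at -0.20, and for Syt12, at 0.27. Without the high dose arrays in Cy3 or the low dose arrays in Cy5 the Rab38 difference was -0.11 or -0.08 and no longer called.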

How the results depend on the processing

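The main counts of members called were 2 over both doses, 1 at the high dose, 3 at the low dose and 2 for the dose difference. With the scanner's own ratios, and likewise with the deposited value table, the high dose count was 0 and the difference 1. With normexp offset 0 the difference was 1. Within scan days 1 and 2 the counts were 1 over both doses, 0 high, 1 low and 0 for the difference, and within day 3 they were 0, 0, 1 and 0, on 2 regions each. With the replicate block, on single arrays, the count over both doses was 4 (all genes 1655 against 605), and the paired fit changed no other count. The scan day as a random block gave 3 over both doses. Leaving out a region gave 1 to 2, 0 to 1, 2 to 3 and 2 to 2. Leaving out an array number, which leaves 1 dye orientation at a dose, gave 14 to 18, 22 to 27, 26 to 32 and 23 to 27, where 15.9% to 20.5%, 28.3% to 32.1%, 31.0% to 35.7% and 23.1% to 32.1% of all genes were called. The share called thus rose over all genes too. The tallies of alternatives given for Syt12, Rab38 and Syt5 include these fits. Vamp2 at the low dose then read 0.47 or -0.48. The saline count of 39 became 38 to 43 without an array number and 34 to 48 in the other settings. Single swaps past 1.2-fold numbered 17, and 54 with scanner ratios, 54 with the value table and 35 with offset 0. Over all genes, scanner ratios called 341, 273, 329 and 197, deposited values called 328, 262, 319 and 194, and the scan day as a random block 1043 over both doses and 1228 at the low dose. Offset 0 called 327 at the high dose and 213 for the difference, against 495 and 351. Of 1988 gene values under alternatives, 1643 kept direction and call, 80 gained a call, 46 lost it and 219 changed sign. None of the 219 had been called in the fit reported, and 39 were called in the opposite direction, each of them with 1 array number left out. In each of the 12 dye swaps the 2 arrays, both turned to MK-801 over saline, correlated below 0 (-0.484 to -0.105). The cause was not tested. Region, slide and set of rats limit every comparison.

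The values that changed sign follow, in log2 units. With scanner ratios they were Unc13a 0.016 over both doses, and Stx1a 0.0081 and Syp 0.0008 at the high dose, and Syp -0.0011 at the low dose, and Rims1 -0.0015 and Rab34 0.0033 for the dose difference. With the deposited value table they were Unc13a 0.0156 over both doses, and Stx1a 0.0081 and Syp 0.0003 at the high dose, and Syp -0.0014 at the low dose, and Rims1 -0.0015 and Rab34 0.0035 for the dose difference. With the mean of a gene's probes they were Syt1 -0.0064 at the high dose, and Sv2b -0.0259 for the dose difference. Within scan day 1 they were Stx1a -0.0164, Cplx2 0.011, Rims1 0.008 and Syt7 -0.0088 over both doses. At the high dose that day they were Cplx2 0.0382, Rims1 0.0644 and Sv2b 0.095. At the low dose that day they were Stx1a -0.0098 and Sv2c 0.0435. For the dose difference that day they were Cplx1 0.0023, Rab3a 0.0241 and Rab34 0.0309. Within scan day 2 they were Snap25 0.0217, Cplx1 0.0588, Cplx2 0.0093, Rims1 0.0278, Syp 0.0405, Syn1 -0.0097, Sv2a 0.0167 and Syt7 -0.0201 over both doses. At the high dose that day they were Rab38 -0.01, Stx1a 0.008, Snap25 0.0463, Cplx1 0.0228, Cplx2 0.0327, Unc13a -0.0345, Rims1 0.0482, Syp 0.0406, Syn2 0.0148, Sv2a 0.0289, Sv2b 0.0189 and Syt7 -0.0001. At the low dose that day they were Stx1a -0.0067, Cplx1 0.0949, Unc13a 0.021, Rims1 0.0075, Syn1 -0.0213, Sv2a 0.0045 and Sv2c 0.0371. For the dose difference that day they were Stx1a 0.0146, Vamp2 0.0001, Snap25 0.049, Unc13a -0.0555, Syp 0.0001, Syn1 0.0233, Sv2a 0.0244, Rab3a 0.0378 and Rab34 0.0833. Within scan day 3 they were Unc13a 0.012 over both doses. At the high dose that day they were Syt5 0.0037, Syp 0.0262, Rab3a -0.0167 and Rab34 -0.0263. At the low dose that day they were Snap25 0.0092 and Syt7 0.0421. For the dose difference that day they were Cplx1 0.0087, Rims1 -0.0849, Syn2 -0.0075, Sv2a 0.0216, Sv2b -0.25, Sv2c 0.0719, Rab31 0.0063 and Syt3 0.0156. With the replicate block they were Syp -0.0186 at the low dose, and Syp 0.0162 for the dose difference. Leaving out 1 region or 1 array number in turn, the results whose sign changed had these lowest and highest values. Ranges over both doses were Cplx1 -0.11 to 0.0851, Cplx2 -0.17 to 0.0587, Rab31 -0.0267 to 0.17, Rab33b -0.0521 to 0.0705, Rab3a -0.029 to 0.15 and Rims1 -0.14 to 0.056. Further ones were Snap25 -0.0551 to 0.0056, Stx1a -0.11 to 0.13, Sv2a -0.14 to 0.0891, Syp -0.20 to 0.16, Syt1 -0.11 to 0.0615 and Syt3 -0.0808 to 0.19. The remaining ones were Syt7 -0.0023 to 0.0255, Unc13a -0.0686 to 0.0634 and Vamp2 -0.29 to 0.22. Ranges at the high dose were Cplx1 -0.19 to 0.14, Cplx2 -0.22 to 0.14, Rab31 -0.14 to 0.26, Rab33b -0.15 to 0.0949, Rab38 -0.081 to 0.10 and Rab3a -0.0956 to 0.21. Further ones were Rims1 -0.22 to 0.16, Snap25 -0.0983 to 0.0231, Stx1a -0.23 to 0.21, Sv2a -0.25 to 0.19, Sv2b -0.13 to 0.0318 and Syn1 -0.0089 to 0.0162. The remaining ones were Syn2 -0.12 to 0.0751, Syp -0.40 to 0.39, Syt1 -0.0604 to 0.12, Syt3 -0.23 to 0.31, Syt5 -0.22 to 0.0468 and Unc13a -0.12 to 0.15, with Vamp2 -0.59 to 0.51. Ranges at the low dose were Cplx1 -0.20 to 0.19, Cplx2 -0.30 to 0.17, Rab31 -0.11 to 0.28, Rab33b -0.0488 to 0.14, Rab3a -0.12 to 0.24 and Rims1 -0.17 to 0.0669. Further ones were Snap25 -0.0313 to 0.0105, Stx1a -0.22 to 0.27, Sv2a -0.25 to 0.21, Sv2c -0.0402 to 0.0181, Syn1 -0.0016 to 0.0681 and Syp -0.41 to 0.37. The remaining ones were Syt1 -0.25 to 0.093, Syt3 -0.17 to 0.31, Unc13a -0.0802 to 0.0412 and Vamp2 -0.48 to 0.47. Ranges for the dose difference were Cplx1 -0.22 to 0.18, Cplx2 -0.20 to 0.25, Rab31 -0.22 to 0.18, Rab33b -0.20 to 0.0487, Rab34 -0.0355 to 0.0337 and Rab3a -0.18 to 0.18. Further ones were Rims1 -0.17 to 0.22, Snap25 -0.0864 to 0.035, Stx1a -0.28 to 0.21, Sv2a -0.24 to 0.22, Sv2b -0.0786 to 0.0788 and Syn1 -0.0645 to 0.0053. The remaining ones were Syn2 -0.0329 to 0.16, Syp -0.41 to 0.40, Syt1 -0.063 to 0.28, Syt3 -0.29 to 0.24, Syt5 -0.0726 to 0.19 and Unc13a -0.0982 to 0.17, with Vamp2 -0.54 to 0.51.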
